A study of Homo sapiens with 9 samples.

Results

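Matrix metalloproteinases (MMPs) and their tissue inhibitors (TIMPs) were followed across A549 cells given scrambled siRNA or siRNA against Cyclin K. The set held 10 members, the metalloproteinases MMP1, MMP2, MMP14, MMP15, MMP16, MMP17 and MMP24 and the inhibitors TIMP1, TIMP2 and TIMP3, of 31080 reference genes with a value. Members were found by gene symbol, and MMP24 had been chosen by its strong rise in FPKM in these same libraries, so that its change against scrambled siRNA is given as a description with no test. A549, a human lung adenocarcinoma cell line, was transfected with scrambled siRNA, siCyclin K#1 or siCyclin K#2, and RNA was taken at 48 h. The methods give 50 nM siRNA for transfections, and all 9 libraries (3 per group) came from this 1 line with no other treatment. Values are FPKM, fragments scaled to gene length and library depth, so that levels of different genes can be set side by side. They describe mRNA in bulk cultures, in which fewer cells of a type and less RNA per cell cannot be told apart, and say nothing of protein or of enzyme activity.

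MMPs are zinc-dependent endopeptidases that are made as inactive proenzymes and cut matrix proteins and cell surface proteins once the propeptide is removed. The members differ in where they act. MMP14, MMP15, MMP16 and MMP24 span the plasma membrane, MMP17 is held there by a lipid anchor, and MMP1 and MMP2 are secreted. Furin-like convertases remove the propeptide of the membrane-bound enzymes. TIMPs are small secreted proteins that block the active site of MMPs, and TIMP2 together with MMP14 also takes part in activating the MMP2 proenzyme at the cell surface. In lung cancer the family is known for matrix turnover during invasion.

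CCNK, which encodes Cyclin K, stood at 7.02 ± 0.107 FPKM (SD, n = 3) in the scrambled libraries. It fell to 0.809 ± 0.0857 with siCyclin K#1 and 0.844 ± 0.0661 under siCyclin K#2. Both siCyclin K groups lay below every scrambled library and overlapped each other. The 9 libraries held between 31332150 and 33768050 reads by an estimate from the FPKM steps of low genes. Of the epithelial markers 3 of 5 (KRT8, KRT18, CDH1) had a mean FPKM of at least 1, while KRT19 and EPCAM were near 0. The fibroblast list summed to 5.69 to 6.46 in the scrambled libraries, 20.0 to 22.1 with siCyclin K#1 and 7.78 to 7.94 under siCyclin K#2. Of its 6 genes, DCN, PDGFRB and COL1A2 stayed near 0 in FPKM, although DCN had 7 to 13 reads per scrambled library and 29 to 37 per siCyclin K#1 library. LUM lay at 0.297 to 0.397 in the scrambled and at 1.61 to 2.70 in the siCyclin K#1 libraries, and PDGFRA at 3.40 to 3.75 and 4.47 to 4.78. COL1A1, a matrix gene itself, had a mean of 2.03 with scrambled siRNA against 14.0 with siCyclin K#1. The part of these markers in any change below was not tested. The leukocyte markers PTPRC and LYZ and the endothelial markers were at or near 0, and the remaining leukocyte marker, CD68, had an FPKM of 29.98 to 30.7 in the scrambled libraries, 31.0 to 33.7 in those of siCyclin K#1 and 37.02 to 39.01 under siCyclin K#2.

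The promoters of MMP24 and MMP14, membrane MMPs whose libraries with both siRNAs lay above every scrambled library, are shown first. MMP24 was chosen by its rise, so that the shared direction of the pair is not a result of its own. Each promoter window is the 250 bases before the start in RefSeq on GRCh38.p14, read 5′ to 3′ on the plus strand. GC boxes (GGGCGG, or CCGCCC on the other strand) are in capitals. MMP24 is at chr20:35226440-35226689 and MMP14 at chr14:22836335-22836584. In GENCODE's annotation of GRCh38 the genes start within these windows, at 35226654 for MMP24 and 22836557 for MMP14. The last bases of each window lie inside the gene there.
MMP24: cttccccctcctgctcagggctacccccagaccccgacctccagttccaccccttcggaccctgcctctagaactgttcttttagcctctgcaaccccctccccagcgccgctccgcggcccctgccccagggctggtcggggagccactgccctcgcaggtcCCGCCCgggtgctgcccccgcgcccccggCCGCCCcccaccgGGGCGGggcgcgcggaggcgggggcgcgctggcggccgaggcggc
MMP14: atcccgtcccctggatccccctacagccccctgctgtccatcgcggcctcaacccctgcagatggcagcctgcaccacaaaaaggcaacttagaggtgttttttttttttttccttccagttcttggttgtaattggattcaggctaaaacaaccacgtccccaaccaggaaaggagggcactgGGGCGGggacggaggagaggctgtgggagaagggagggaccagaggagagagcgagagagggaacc

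The MMP24 window held 3 GC boxes, 25 CpG dinucleotides and 77.6% G or C, and the MMP14 window held 1 GC box, 7 CpG dinucleotides and 56.8% G or C. Over 35116 promoters of the same length the medians were 11 CpG dinucleotides and 58.0% G or C, and 42.6% held a GC box. Of the 10 members 5 were in the promoter table. TIMP1, which fell, had 2 GC boxes and 64.8% G or C, MMP15 had 5 GC boxes and 74.8%, and TIMP3, which was hardly detected, had 5 GC boxes and 72.4%. None of the 5 windows held the AP-1 letters TGANTCA, which 6.57% of all promoters held, or the TATA letters TATAAA, which 10.7% held, on either strand. The pair that was higher differed from each other in base composition, and the letters describe the windows without marking a binding site.

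With scrambled siRNA the inhibitors were far more abundant than the proteases. TIMP1 mRNA led at a mean FPKM of 99.6 ± 5.04 (SD, n = 3), followed by TIMP2, in a row joined with CEP295NL, at 17.1 ± 0.729. The membrane-bound proteases came next, in the order MMP15 at 4.65 ± 0.267, MMP17 at 3.64 ± 0.400, MMP16 at 3.13 ± 0.0801 and MMP24 at 1.65 ± 0.174, and no neighbours in this order down to MMP24 overlapped. The collagenase MMP1 (0.191 ± 0.0443), MMP14 (0.142 ± 0.0336) and the gelatinase MMP2 (0.0802 ± 0.0352) stood at the bottom, where MMP1 overlapped MMP14 and MMP14 overlapped MMP2. TIMP3 was listed at 0 in 2 of the 3 scrambled libraries.

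**Figure D1:**
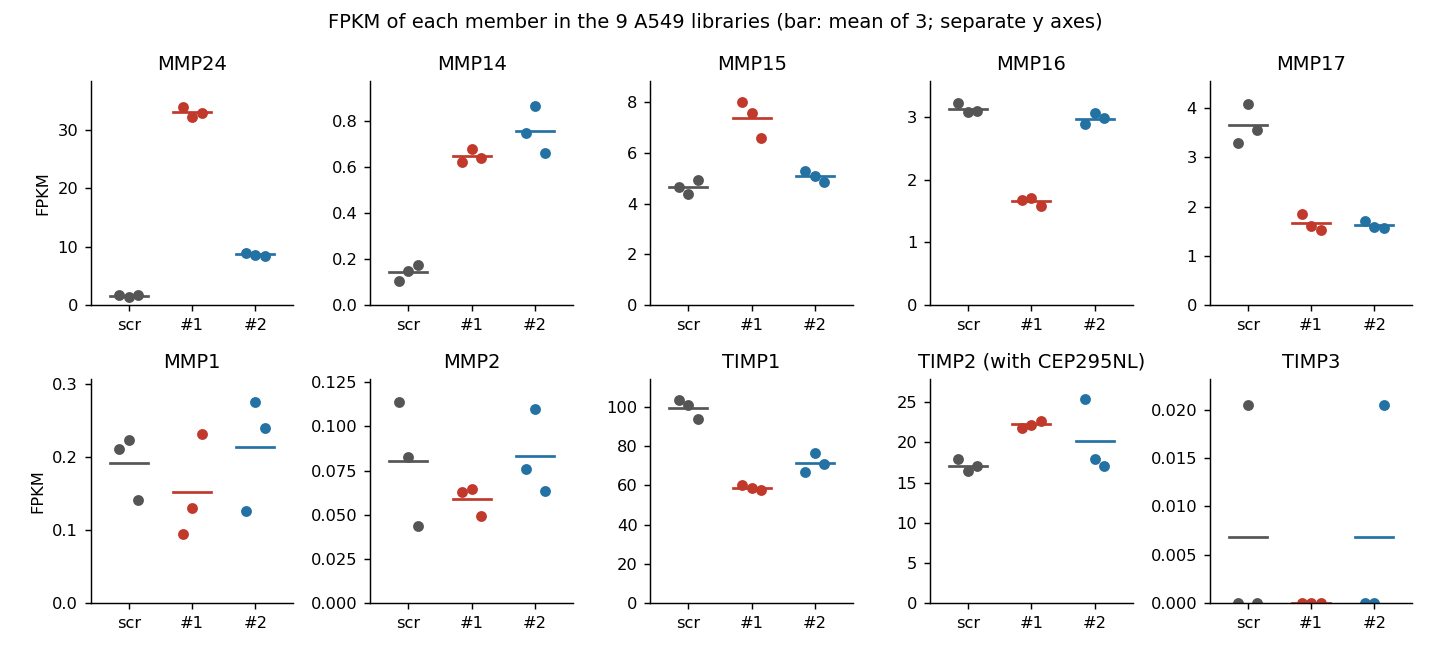
FPKM of each of the 10 genes (y axes, scaled separately per gene) in the 3 groups (x axis), with a point per library and a bar at the mean of 3. MMP24 and MMP14 lie above every scrambled library with both siRNAs, MMP17 and TIMP1 lie below every scrambled library with both, and MMP15 and MMP16 stand apart mainly with siCyclin K#1.

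MMP24, which spans the membrane and is best known from neurons, showed the widest range of the set. Its gene (ENSG00000125966) lies on the plus strand of chromosome 20, from 35226654 to 35277000 in GRCh38. The scrambled libraries gave an FPKM of 1.68, 1.46 and 1.80, from 205 to 258 reads. The siCyclin K#1 libraries gave 33.9, 32.3 and 33.0, from 4465 to 4846 reads. The siCyclin K#2 libraries gave 9.002, 8.59 and 8.48, from 1193 to 1277 reads. All 3 groups were apart, with the siCyclin K#1 libraries at the top and the scrambled libraries at the bottom. Mean FPKM was 20.1 times the scrambled mean with siCyclin K#1 and 5.27 times under siCyclin K#2, which is 4.25 and 2.33 in log2 fold change on the log2(FPKM + 0.1) scale that is used for all fold changes here. Between the siRNAs siCyclin K#1 exceeded siCyclin K#2 by 1.92 log2 units, also given without a test. CCNK itself did not pass the direct comparison of the siRNAs (log2 difference -0.06, 95% interval -0.28 to 0.17, limma adjusted p = 0.726).

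Of the other 9 members 7 passed the filter for testing (an FPKM of 0.1 or more in 3 or more libraries), and MMP2 and TIMP3 did not. With the siRNAs pooled 3 of the 7 passed limma at an adjusted p under 0.05, 1 higher (MMP14) and 2 lower (MMP17, TIMP1). Among all 21048 genes tested 28.6% passed, 17% higher and 11.5% lower. With siCyclin K#1 6 of 7 passed, 3 higher (MMP14, MMP15, TIMP2) and 3 lower (MMP16, MMP17, TIMP1), where 44.8% of all genes did, 26.8% higher and 18.1% lower. With siCyclin K#2 3 of 7 passed, again MMP14 higher and MMP17 and TIMP1 lower, where 34.9% of all genes did, 19.8% higher and 15.2% lower. These comparisons share the scrambled libraries. The median log2 fold change of the 7 was -0.08 with both siRNAs, -0.24 with siCyclin K#1 and 0.08 under siCyclin K#2, beside 0.06, 0.10 and 0.01 over all genes. The study's methods give a rule of fold over 3 and p under 0.01. Here it was applied to limma fold changes of FPKM + 0.1 and unadjusted limma p-values, not to the study's own values. By it MMP14 alone of the 7 was called in each of the 3 comparisons, where 2.29%, 4.67% and 1.94% of all genes were.

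**Figure D2:**
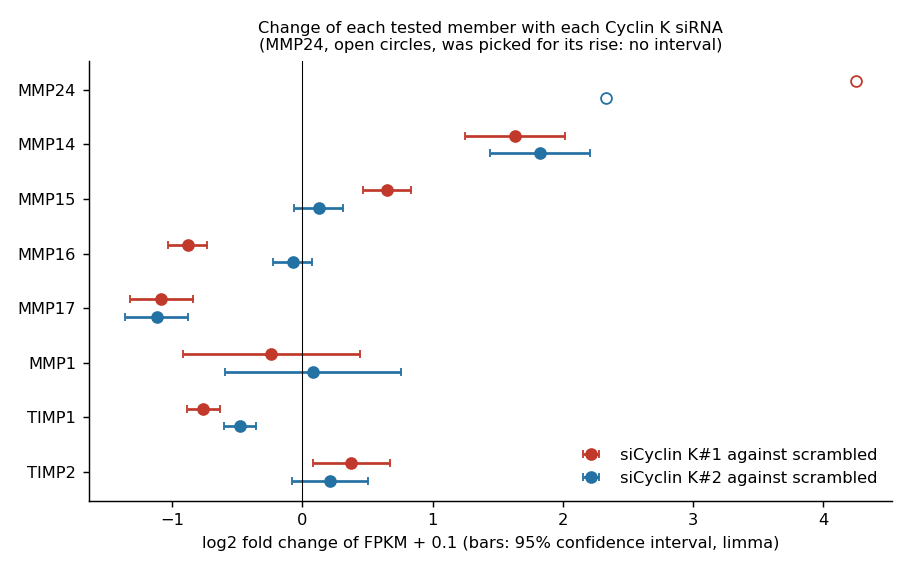
Log2 fold change of FPKM + 0.1 (x axis) of the 8 genes that could be fitted (y axis) with siCyclin K#1 (red) and siCyclin K#2 (blue) against scrambled siRNA. Bars are 95% confidence intervals from limma, and MMP24 is an open circle without an interval because its rise chose it. MMP14 lies to the right and MMP17 and TIMP1 to the left of 0 with both siRNAs.

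MMP14, the membrane protease that degrades fibrillar collagen at the cell front, rose with both siRNAs from a very low level. The scrambled libraries gave an FPKM of 0.106, 0.148 and 0.173, which rest on 16, 21 and 25 reads. With siCyclin K#1 the values were 0.623, 0.679 and 0.639 (90, 95 and 94 reads), and under siCyclin K#2 0.746, 0.863 and 0.661 (107, 128 and 94 reads). Every siCyclin K library was above every scrambled library, and the siCyclin K groups overlapped each other. Mean FPKM was 4.55 times the scrambled mean with siCyclin K#1 and 5.32 times under siCyclin K#2. On the shifted scale the log2 fold changes were 1.63 (SE 0.169, limma adjusted p = 5.88e-05) and 1.83 (SE 0.169, limma adjusted p = 4.88e-05). With a pseudocount of 1 in place of 0.1 they were 0.53 and 0.62, still past limma but short of a 3-fold change. With the 6 siCyclin K libraries against 3, the exact two-sided permutation test gave p = 0.0119, the smallest this design allows. The direct difference between the siRNAs, -0.19, did not pass (95% interval -0.58 to 0.19, limma adjusted p = 0.457). Even after the rise MMP14 stayed below an FPKM of 1, so that it remained far under MMP24 and MMP15 in level.

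MMP17, the membrane protease with a lipid anchor, fell by about as much with either siRNA. It gave an FPKM of 3.30, 4.08 and 3.55 with scrambled siRNA, 1.86, 1.61 and 1.53 with siCyclin K#1, and 1.70, 1.59 and 1.56 under siCyclin K#2. The siCyclin K libraries were all below the scrambled ones and overlapped each other. The mean was 45.7% of the scrambled mean with siCyclin K#1 and 44.4% under siCyclin K#2. Log2 fold changes were -1.08 (SE 0.105, limma adjusted p = 4.06e-05) and -1.12 (SE 0.105, limma adjusted p = 5.40e-05), and the exact permutation test of 6 libraries against 3 gave p = 0.0119. The direct difference was 0.04 with a 95% interval from -0.20 to 0.28.

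MMP15 and MMP16, both spanning the membrane, differed between the siRNAs. MMP15 gave an FPKM of 4.65, 4.38 and 4.92 with scrambled siRNA, 7.998, 7.56 and 6.57 with siCyclin K#1, and 5.28, 5.08 and 4.87 under siCyclin K#2. All siCyclin K#1 libraries were above the rest, and the siCyclin K#2 libraries overlapped the scrambled ones. It rose by 0.65 log2 units with siCyclin K#1 (SE 0.0811, limma adjusted p = 0.000192), and the 0.12 under siCyclin K#2 did not pass (95% interval -0.06 to 0.31, limma adjusted p = 0.285). MMP16 gave 3.23, 3.08 and 3.09 with scrambled siRNA, 1.67, 1.71 and 1.58 with siCyclin K#1, and 2.89, 3.06 and 2.98 under siCyclin K#2. The siCyclin K#1 libraries were lowest, and those of siCyclin K#2 were just below the scrambled range. MMP16 fell by 0.88 log2 units with siCyclin K#1 (SE 0.0658, limma adjusted p = 7.87e-06), and its -0.07 under siCyclin K#2 did not pass (95% interval -0.22 to 0.08, limma adjusted p = 0.447).

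Both genes passed the direct test, MMP15 higher by 0.53 (limma adjusted p = 0.00136) and MMP16 lower by 0.81 (log2 difference -0.81, limma adjusted p = 3.65e-05) with siCyclin K#1 than under siCyclin K#2. In that comparison 3 of the 7 passed, MMP15 higher and MMP16 and TIMP1 lower with siCyclin K#1, where 29.4% of all genes did, 17.1% higher and 12.3% lower. The fold rule called none of the 7 there and 1.53% of all genes. With the siRNAs pooled neither MMP15 (0.39, limma adjusted p = 0.117) nor MMP16 (-0.48, limma adjusted p = 0.168) passed. Where the 3 groups shared 1 estimate of the spread the same differences had limma adjusted p-values of 0.00194 and 0.000156. The exact permutation test of 6 libraries against 3 gave p = 0.0595 for MMP15 and p = 0.0357 for MMP16. All 6 siCyclin K libraries of MMP16 lay below the scrambled ones.

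The secreted proteases were at the limit of detection. MMP1, the interstitial collagenase, had 14, 14 and 9 reads with scrambled siRNA, 6, 8 and 15 with siCyclin K#1, and 8, 18 and 15 under siCyclin K#2, an FPKM from 0.0941 to 0.275 over all libraries. The groups overlapped throughout, and no comparison passed, with the difference of both siRNAs at -0.08 and a 95% interval from -0.69 to 0.54. MMP2, gelatinase A, had 39 reads in the scrambled libraries together, 28 with siCyclin K#1 and 40 under siCyclin K#2. It was not tested by limma, and the exact permutation test of 6 libraries against 3 gave p = 0.667. With this few reads the data leave a wide interval for MMP1, and for MMP2 no interval was fitted. MMP1 sits in the cluster of MMP genes on chromosome 11, in which MMP7 had 2 to 31 reads per library, MMP10 at most 6, MMP13 at most 5, MMP3 at most 3 and MMP20 at most 2, while MMP8, MMP12 and MMP27 were not analysed here.

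TIMP1, a secreted inhibitor and the most abundant member, fell with both siRNAs. It gave an FPKM of 104, 101 and 94.0 with scrambled siRNA, 60.3, 58.5 and 57.5 with siCyclin K#1, and 66.9, 76.6 and 71.0 under siCyclin K#2. All 3 groups were apart, with siCyclin K#1 lowest. The mean was 59.0% of the scrambled mean with siCyclin K#1 (log2 fold change -0.76, SE 0.0551, limma adjusted p = 6.61e-06) and 71.8% under siCyclin K#2 (-0.48, SE 0.0551, limma adjusted p = 0.000182). The fall was larger with siCyclin K#1 by 0.28 log2 units (log2 difference -0.28, limma adjusted p = 0.00492), and the exact permutation test of 6 against 3 gave p = 0.0119. TIMP1 (chromosome X, 47582313 to 47586789, plus strand) lies within SYN1 on the opposite strand, and the strand used in counting is not stated. SYN1 had a mean FPKM of 0.129, 1.04 and 0.142 in the 3 groups, small beside TIMP1.

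TIMP2 was deposited as a row joined with CEP295NL, so its values cannot be separated from that gene. The row gave an FPKM of 17.9, 16.4 and 17.0 with scrambled siRNA, 21.8, 22.2 and 22.7 with siCyclin K#1, and 25.4, 17.9 and 17.1 under siCyclin K#2. The siCyclin K#1 libraries were above all scrambled ones, whereas under siCyclin K#2 replicate 1 was the highest library of all and the others lay within or just above the scrambled range. The log2 fold change with siCyclin K#1 was 0.38 (SE 0.129, limma adjusted p = 0.0422). This call was lost without a filter on low values (limma adjusted p = 0.0608), with median-ratio rescaling (0.0917), without a trend in the variance (0.0724) and on leaving out any of the 6 libraries compared (0.0685 to 0.112), while it was firmer with the siCyclin K#2 libraries left out of the fit (0.000665) or without siCyclin K#2 replicate 1 alone (0.000261). With siCyclin K#2 the difference was 0.21 (95% interval -0.08 to 0.51, limma adjusted p = 0.252). With the siRNAs pooled it was 0.29 (limma adjusted p = 0.0995), and the exact permutation test of 6 libraries against 3 gave p = 0.0595. Without siCyclin K#2 replicate 1 the direct difference between the siRNAs passed (0.34, limma adjusted p = 0.00187), and with it the difference did not (0.16, limma adjusted p = 0.402). TIMP3, the inhibitor that binds to the matrix, had 3 reads in 1 scrambled library, 3 reads in 1 siCyclin K#2 library and 0 in the others, at or under the floor of 3 reads per library (an FPKM of 0.0193 to 0.0208), so no fold is given.

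The total of the proteases and their leading gene changed with MMP24, the member chosen by its rise. The 7 proteases summed to an FPKM of 13.3 to 13.7 in the scrambled libraries, 43.6 to 46.2 with siCyclin K#1 and 18.8 to 19.8 under siCyclin K#2. MMP24 was 10.8% to 13.1% of that sum in the scrambled libraries, 73.3% to 75.7% with siCyclin K#1 and 43.9% to 45.4% under siCyclin K#2. MMP15 held the first place with scrambled siRNA at 32.6% to 35.8%, and stood second behind MMP24 with both siRNAs. Without MMP24 the other 4 membrane-bound proteases summed to 11.3 to 11.7, 10.3 to 12.1 and 10.1 to 10.6 in the 3 groups, so that siCyclin K#1 overlapped scrambled siRNA while siCyclin K#2 lay just below it. The 3 inhibitors summed to 111 to 122, 80.2 to 82.1 and 88.1 to 94.5. The TIMP2 part of this sum and of the ratio below is the row joined with CEP295NL. The ratio of the inhibitor sum to the protease sum was 8.09 to 9.15 in the scrambled libraries, 1.78 to 1.84 with siCyclin K#1 and 4.66 to 4.83 under siCyclin K#2. The sums, shares and ratios are given without a test. MMP24, chosen by its rise in these libraries, is part of the protease sum and of the ratio. The rise of the protease sum and the change of leading gene therefore follow from that choice. The sum of the other 4 membrane-bound proteases had a mean of 11.6, 11.3 and 10.4 in the 3 groups and did not rise. The ratio also holds the fall of the inhibitor sum.

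**Figure D3:**
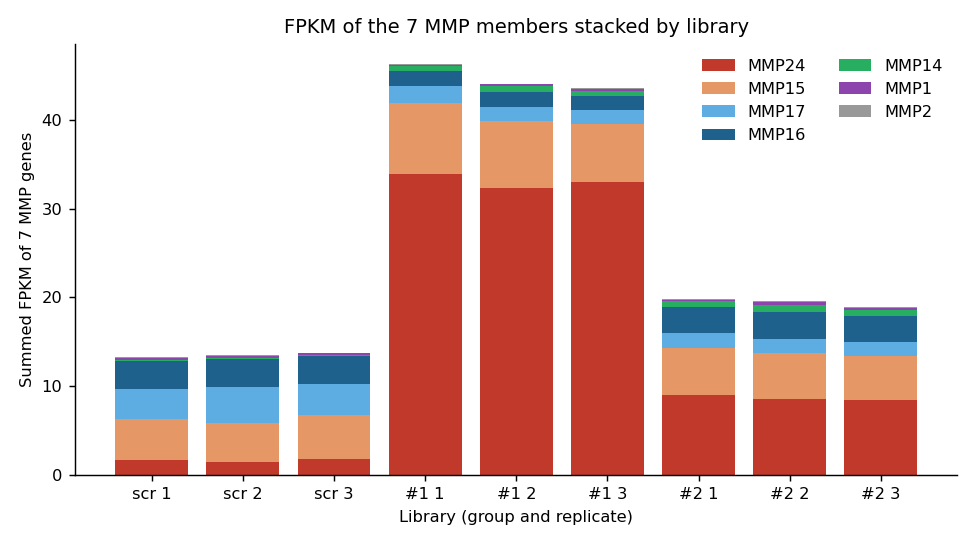
Summed FPKM of the 7 protease genes (y axis) in each of the 9 libraries (x axis, scr for scrambled siRNA, #1 and #2 for the Cyclin K siRNAs, then the replicate), with a colour per gene. The totals are 13.3 to 13.7, 43.6 to 46.2 and 18.8 to 19.8 in the 3 groups. MMP24, chosen by its rise, is at the base of each bar and carries the difference in total.

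Genes around MMP24 did not share the size of its change. Within 100 kb on either side 6 other rows could be fitted. EDEM2, a gene of glycoprotein degradation, rose from an FPKM of 15.5 to 22.8 with siCyclin K#1 (log2 fold change 0.56, limma adjusted p = 7.67e-05), and its 17.3 under siCyclin K#2 did not pass (0.16, limma adjusted p = 0.0702). PROCR, the endothelial protein C receptor, joined with the pseudogene MT1P3, had log2 fold changes of 0.10 and 0.09, neither passed. MMP24OS, which lies across MMP24 on the opposite strand, was joined with EIF6, and this row had a mean FPKM of 14.8, 14.3 and 15.5 in the 3 groups (limma adjusted p = 0.682 and 0.529). AL121753.2, also antisense within MMP24, was at 1.15, 1.41 and 1.43, and UQCC1 at 3.66, 3.33 and 4.26, none passed. AL356652.1, listed at 0 in the scrambled and siCyclin K#2 libraries, had a mean of 0.240 with siCyclin K#1. Its log2 fold change there was 1.73 (limma adjusted p = 0.000971), the largest among these neighbours, at a level near 0. Without strand in the counting, reads of MMP24 and of antisense genes across it cannot be told apart, and AL121753.1, another of these, was not analysed here.

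**Figure D4:**
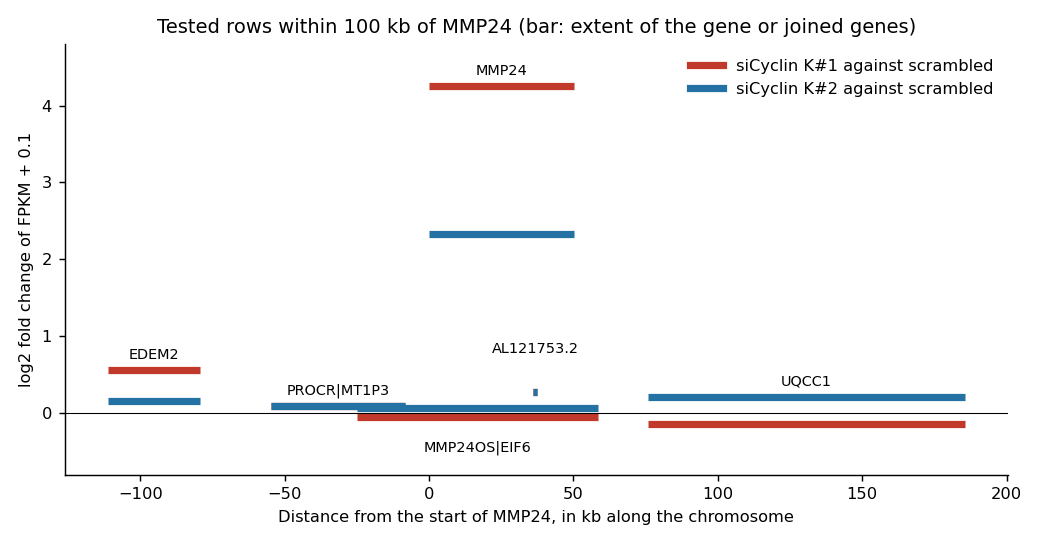
Log2 fold change of FPKM + 0.1 (y axis) of 6 fitted rows at MMP24 and within 100 kb of it, drawn over the extent of each gene or joined group of genes (x axis, distance in kb from the start of MMP24) for siCyclin K#1 (red) and siCyclin K#2 (blue). MMP24 stands at 4.25 and 2.33, and every other row drawn lies at 0.56 or below. AL356652.1 (1.73 with siCyclin K#1) is left out because it was listed at 0 with scrambled siRNA.

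The genes whose levels over the 9 libraries were most like MMP24 were P3H2, TRAF7, SVIL, ZNF469 and TOMM34, with a Pearson r of 0.998 to 0.999 on log2(FPKM + 0.1) among 11242 genes whose mean FPKM reached 1. The 9 libraries form 3 groups, so that such an r mostly describes the order and spacing of 3 group means. P3H2, a collagen prolyl 3-hydroxylase, had a mean FPKM of 3.00, 11.3 and 6.20 in the scrambled, siCyclin K#1 and siCyclin K#2 groups. SVIL, which encodes the actin-binding supervillin, had 6.17, 27.8 and 14.5, and the zinc finger gene ZNF469 had 0.211, 5.00 and 1.39. TRAF7 (14.3, 29.02 and 20.9) and the mitochondrial import gene TOMM34 (23.8, 39.7 and 32.2) moved in the same order over a narrower range.

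Among 17 other MMP genes 13 had a value, 5 could be tested, and with both siRNAs 0 passed higher and 2 lower (3 of the 5 at an unadjusted p under 0.05), beside the 17% higher and 11.5% lower of all genes that hold for every list in this comparison. The median log2 fold change of the 5 was -0.45. MMP19, a secreted protease, gave an FPKM of 2.20, 2.75 and 2.73 with scrambled siRNA, 0.674, 0.929 and 0.604 with siCyclin K#1, and 0.446, 0.857 and 0.416 under siCyclin K#2. All siCyclin K libraries were below the scrambled ones (log2 fold change -1.86, limma adjusted p = 0.000328). The other was MMP9, gelatinase B, named after its values were seen because its mean was under an FPKM of 1. It fell from 0.940 to 0.224 with siCyclin K#1 and to 0.164 under siCyclin K#2 (log2 fold change -1.85, limma adjusted p = 0.000232). MMP23A, a pseudogene with a near-identical partner in MMP23B, is uncertain, since reads of the pair could be split either way.

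Of 4 other inhibitors 2 could be tested, and both fell with both siRNAs, as TIMP1 did, with a median log2 fold change of -0.79. TFPI2, an inhibitor of plasmin and of MMPs, had a mean FPKM of 8.11 with scrambled siRNA, 2.96 with siCyclin K#1 and 4.35 under siCyclin K#2 (log2 fold change -1.15, limma adjusted p = 0.000688). RECK, a membrane-anchored inhibitor of MMPs, had 5.22, 4.13 and 3.59 (-0.43, limma adjusted p = 0.00813). The activating convertases and BSG, an inducer of MMPs, had 6 tested genes, 3 higher and 1 lower (17% and 11.5% of all genes), with a median of 0.22. FURIN, the convertase named above, did not pass with both siRNAs (0.12, limma adjusted p = 0.265). BSG was the single gene of this list that met the rule for naming, from a mean FPKM of 100.0 to 111 and 121 (0.22, limma adjusted p = 0.0280). This pooled call was lost with median-ratio rescaling (limma adjusted p = 0.127), without scrambled siRNA replicate 2 (0.0933) and without scrambled siRNA replicate 3 (0.137). BSG passed with siCyclin K#1 by itself (limma adjusted p = 0.0311) and under siCyclin K#2 by itself (0.00280). PCSK4 had the largest change of the list, from a mean FPKM of 0.0878 to 0.718 and 0.387 (1.78, limma adjusted p = 0.00151). PCSK6, joined with AC023024.2, was also higher (0.60, limma adjusted p = 0.0260), and PCSK5 was lower (-0.77, limma adjusted p = 0.0373). These genes were named after their values were seen, since each had a mean under an FPKM of 1. On leaving out each library in turn this list had 1 to 3 genes higher and 0 to 1 lower.

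The plasminogen activator list, whose proteases feed into MMP activation, had 7 tested genes, of which 0 passed limma with both siRNAs together (4 at an unadjusted p under 0.05), with a median of -0.06. On leaving out each library in turn 0 to 1 passed in either direction. With siCyclin K#1 2 passed higher and 2 lower, and under siCyclin K#2 2 higher and 3 lower, where 44.8% and 34.9% of all genes passed in either direction. PLAU, the urokinase gene, was named after its values were seen: it had a mean FPKM of 54.4, 78.0 and 35.0 in the scrambled, siCyclin K#1 and siCyclin K#2 groups, so that it rose with siCyclin K#1 (0.52, limma adjusted p = 1.76e-05) and fell under siCyclin K#2 (-0.63, limma adjusted p = 9.80e-06).

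The ADAM family, which includes shedding relatives of MMPs, had 9 tested genes, 4 higher and 2 lower with both siRNAs (17% and 11.5% of all genes), with a median of 0.40. ADAM15 rose by 1.01 log2 units (limma adjusted p = 4.45e-05), from a mean FPKM of 2.77 to 5.96 and 5.37. ADAM17, the main shedding enzyme of TNF and a target of TIMP3, fell from 50.5 to 39.9 and 41.2 (-0.32, limma adjusted p = 0.000951), and ADAM19 and ADAM22 rose by 0.40 and 0.96 (limma adjusted p = 0.0305 and 0.0139). The pooled call of ADAM19 was lost without any of the 3 scrambled libraries (0.0800 to 0.107) and without siCyclin K#2 replicate 1 (0.0525) or 2 (0.0508). That of ADAM22 was lost without scrambled siRNA replicate 1 (0.0734) or 3 (0.0697). Each siRNA by itself passed for ADAM19 (limma adjusted p = 0.00959 with siCyclin K#1 and 4.37e-05 under siCyclin K#2) and for ADAM22 (0.00421 and 0.0446). On leaving out each library in turn 1 to 4 ADAM genes were higher and 1 to 3 lower. ADAMTS proteases, which are secreted and also inhibited by TIMP3, had 9 tested genes, 4 higher and 1 lower (17% and 11.5% of all genes), with a median of 0.54. ADAMTS15 gave a mean FPKM of 2.39, 16.8 and 4.42 in the 3 groups (log2 fold change 1.81, limma adjusted p = 0.0296), and it was above its siCyclin K#2 level with siCyclin K#1 in the direct comparison (1.90, limma adjusted p = 5.42e-07). ADAMTS1 fell by 0.71 log2 units (limma adjusted p = 0.0111). The pooled call of ADAMTS15 was lost without any of the 3 scrambled libraries (0.0802 to 0.0888) and without siCyclin K#1 replicate 2 (0.0527), and that of ADAMTS1 without scrambled siRNA replicate 1 (0.0532). By itself each siRNA passed for ADAMTS15 (limma adjusted p = 2.50e-08 with siCyclin K#1 and 2.20e-05 under siCyclin K#2) and for ADAMTS1 (0.000128 and 0.00968). On leaving out each library in turn 1 to 5 ADAMTS genes were higher and 0 to 1 lower.

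Substrates were listed apart from the proteases. Of 7 membrane proteins cut by membrane-bound MMPs 3 passed higher and 1 lower with both siRNAs (17% and 11.5% of all genes), with a median of 0.85. N-cadherin (CDH2) rose from a mean FPKM of 17.2 to 32.0 and 30.3 (0.85, limma adjusted p = 4.84e-06) and is a known substrate of MMP24. The endocytic receptor gene LRP1 rose from 2.85 to 8.24 and 4.81 (1.12, limma adjusted p = 0.00433), CD44 fell from 12.2 to 6.58 and 8.97 (-0.65, limma adjusted p = 0.0133), and APP passed at 0.23 (limma adjusted p = 0.0448), a call lost with median-ratio rescaling (limma adjusted p = 0.135) and on leaving out any of 7 libraries (0.0605 to 0.193). The pooled call of CD44 was lost without scrambled siRNA replicate 1 (limma adjusted p = 0.0711), which left 0 membrane substrates lower. CD44 passed with siCyclin K#1 by itself (limma adjusted p = 0.000365) and under siCyclin K#2 by itself (0.0215). Of 10 matrix genes 7 were tested, 3 higher and 1 lower (17% and 11.5% of all genes), with a median of 0.71. COL4A1, a basement membrane collagen chain, rose from 38.5 to 129 and 88.0 (1.46, limma adjusted p = 0.000129), and FN1 (0.73) and TNC (0.71) rose. The pooled call of TNC was lost without any of the 3 scrambled libraries (limma adjusted p = 0.0723 to 0.0828), and 5 matrix genes were higher without siCyclin K#2 replicate 2. TNC passed with siCyclin K#1 by itself (limma adjusted p = 0.000133) and under siCyclin K#2 by itself (0.0244). The median over all genes in this comparison was 0.06.

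**Figure D5:**
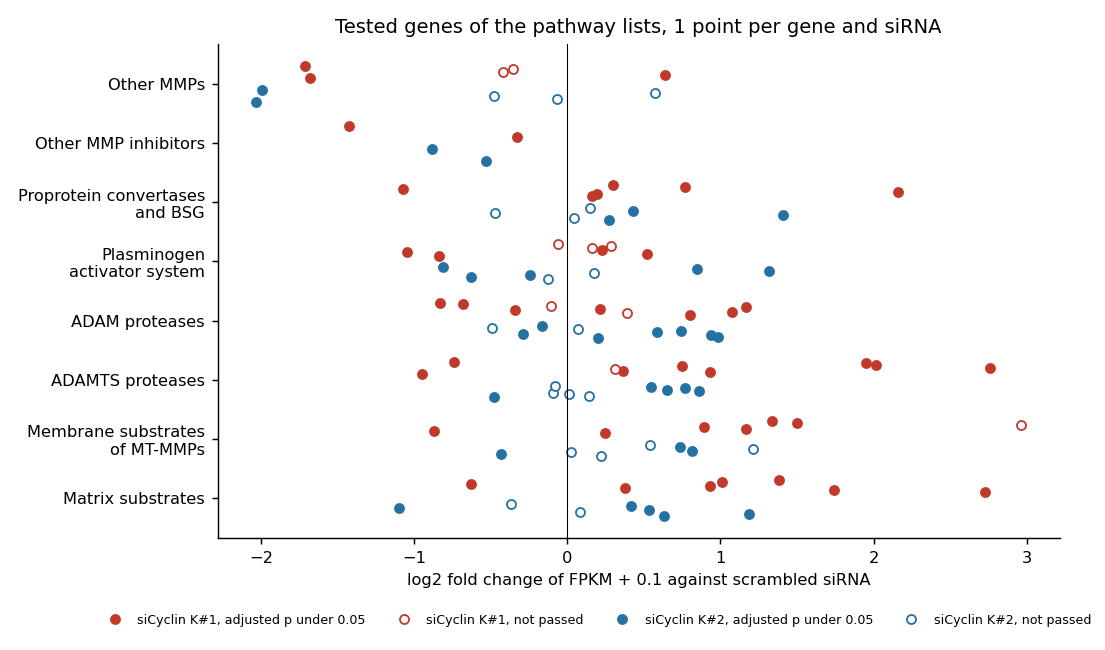
Log2 fold change of FPKM + 0.1 against scrambled siRNA (x axis) of the tested genes in 8 lists (y axis), with a point per gene for siCyclin K#1 (red) and siCyclin K#2 (blue), filled where the limma adjusted p was under 0.05. Both tested inhibitors lie to the left of 0 with either siRNA, and the matrix list holds points on both sides.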

How the data were processed

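RNA of 9 A549 libraries was measured, grouped by the sample labels. The authors deposited FPKM per feature and library, made with StringTie 1.3.3b; the aligner, filters, strand setting and annotation release are not given in the sources used here. Of 33058 gene identifiers 33005 were in GENCODE's annotation of GRCh38. Rows of a gene were summed, and 25125 loci without a reference gene were left out. Reads per library were recovered from FPKM steps and exon lengths: 95.3% to 95.7% of values under 100 reads were whole within 0.05. This estimate covers counting only.

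log2(FPKM + 0.1) of 21048 genes (an FPKM of 0.1 or more in 3 or more libraries) was fitted with limma 3.58.1 (R 4.3.3, lmFit, eBayes with trend, Benjamini-Hochberg adjustment), both siRNAs as 2 groups and each siRNA as 3 groups, a fit tested on simulated data. In the fit as 2 groups a difference between the siRNAs counts as spread within a group. Exact two-sided permutation tests used scipy 1.17.1. With 3 against 3 no exact p under 0.1 is possible. Libraries of a group were not duplicates (chi-square per degree of freedom 15.9 to 21.4). The series gives 3 independent samples per group without naming cultures, so p-values measure the spread between these samples.

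Members and lists were chosen with earlier results of these data known. Named from each list were at most 5 genes, those with the largest change among genes that reached a mean FPKM of 1 and passed with both siRNAs; also the 5 genes most like MMP24, genes within 100 kb of it, and the MMP cluster on chromosome 11. Alternatives were other pseudocounts, filters, scalings, variance models, call rules, a replicate block and leaving out each library. Some genes of the plasminogen activator and matrix lists are not reported here by name. MMP24 was planned as part of the direct comparison of the siRNAs but is not counted there, since its values in these libraries chose it.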

Additional observations from a re-analysis of the deposited data

Results flagged for a closer look

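Apart from MMP24, members that differed between the siRNAs by a direct limma test were MMP15 at a log2 difference of 0.53 (siCyclin K#1 minus siCyclin K#2), MMP16 at -0.81 and TIMP1 at -0.28. These were 3 of the 7 tested, where 29.4% of all genes passed. In each of these 3 genes the 3 libraries of either siRNA did not overlap those of the other. The share of all genes without such overlap is not given.

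TIMP3 among the 6 siCyclin K libraries stood at an FPKM of 0.0205 in siCyclin K#2 replicate 3, which is 3 reads, and at 0 in the other 5. The rule behind this flags about 1 of 20 groups by chance, a rate meant for measured values and not for counts of 0.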

How the results depend on the processing

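Counts of members that passed depended on the call rule. Under a fold over 3 and p under 0.01 they were 1 in each comparison with scrambled siRNA and 0 between the siRNAs, in place of 3 for both siRNAs, 6 for siCyclin K#1, 3 for siCyclin K#2 and 3 in the direct comparison. With 3 groups in the fit 5 passed with both siRNAs. The share of all genes that passed is not given for that fit, for the fits without a library or for the block. Counts from those fits cannot be set against such a share. Leaving out each library gave 3 to 4, 5 to 6, 3 to 3 and 3 to 4. The replicate block gave 3, 6, 3 and 3, and the numbers did not pair the libraries (mean correlation of same-numbered deviations -0.0058, 4 of 9 libraries closest to their own number). Of the named pathway genes BSG, ADAM19, ADAMTS15, APP and TNC did not pass with the siRNAs pooled and the block (limma adjusted p = 0.0566 to 0.0705).

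Differences that changed sign were those of genes that had not passed. MMP1 with both siRNAs became 0.0037 without scrambled siRNA replicate 2 and 0.023 without siCyclin K#1 replicate 1 (range over single libraries left out -0.21 to 0.023), and under siCyclin K#2 it became -0.048 without scrambled siRNA replicate 3 and -0.062 without siCyclin K#2 replicate 2 (range -0.062 to 0.30). The direct difference of MMP17 became -0.089 with quantile normalization, which shifted the median of all genes by -0.15 with siCyclin K#1 and by -0.11 in the direct comparison, and -0.038 without siCyclin K#1 replicate 1 (range -0.038 to 0.093). MMP24 had log2 fold changes of 3.69 and 1.87 with the siRNAs at a pseudocount of 1. TIMP2 with both siRNAs passed without siCyclin K#2 replicate 3 (limma adjusted p = 0.0340). Requiring a mean FPKM of at least 1 removed MMP14 and MMP1 from the test. The causes were not tested. Depth limits MMP1, MMP2, TIMP3 and the scrambled level of MMP14 most.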
